A study of Mus musculus with 4 samples.

Results

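Hk2-positive spots are the positions of a spatial transcriptome array over mouse liver where at least 1 transcript of Hk2, the gene of hexokinase 2, was counted. Of 13640 spots over 4 liver sections, 769 held 1 or more Hk2 UMIs (unique molecular identifiers, each standing for 1 captured molecule) and 12871 held none. Each positive spot was set against an Hk2-zero spot of similar total UMI count, drawn at random from the same section and the same of 10 equal bins of depth. The members were chosen by their Hk2 count alone, so Hk2 was left out of every comparison and its own levels are given as a description. A spot covers a small region that can hold several cells of different types, so a gene that is higher in Hk2-positive spots need not be expressed in the cells that express Hk2.

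Hexokinases phosphorylate glucose to glucose 6-phosphate and so commit it to glycolysis, the pentose phosphate pathway or glycogen. Hexokinase 2 is a high-affinity form that binds mitochondria and is low in healthy hepatocytes. Hexokinase 2 is known from muscle, fat, tumours and activated immune and stromal cells, among them hepatic stellate cells, the pericytes of the liver sinusoid that become collagen-producing myofibroblasts after injury.

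The Visium assay for formalin-fixed, paraffin-embedded tissue was run on 1 section from each of 4 mice, labelled male and 5 months old. The healthy section (n = 1) came from an HK2fl/fl mouse, which carries loxP sites in Hk2 and no Cre, given olive oil. The fibrotic sections (n = 2) came from HK2fl/fl mice given carbon tetrachloride (CCl4), a toxin that injures pericentral hepatocytes. The Hk2-deleted section (n = 1) came from a PDGFRBcreERT2/Hk2fl/fl mouse given CCl4, in which the Pdgfrb promoter drives a tamoxifen-inducible Cre; Pdgfrb is a pericyte and stellate cell gene, so other cells of that liver keep Hk2. According to the labels all mice received tamoxifen at 75 mg/kg for 5 days and then 2 weeks without treatment. CCl4 was given at 1 µL/g 2 times a week, for 6 weeks in the series' design text and for 4 or 6 weeks in the sample protocol. With 1 healthy and 1 Hk2-deleted section, a difference of treatment or genotype cannot be told apart from a difference between single mice or slides.

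Sections held 40585039 to 67479047 UMIs, with medians of 13665 to 15588 UMIs per spot. The liver label was borne out by Alb, the albumin gene, which took 6.88% to 13.5% of all UMIs in each section. Fibrotic replicate 1 went against its label: the Y-linked genes Eif2s3y and Ddx3y stood at 0.578 and 0.415 CPM there (a gene's UMIs scaled to a common total), against 62.1 to 69.9 and 47.0 to 52.4 in the other 3 sections, although all mice are labelled male. Call counts, and the genes whose call is lost, are therefore also given without it. Of 4848 array barcodes used in any section, 1710 occurred in all 4; these are shared array positions and not shared cells.

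Hk2 was a rare transcript in every section. It stood at 1.85 CPM in the healthy section (95% exact Poisson interval 1.51 to 2.25), at 4.88 (4.36 to 5.43) in fibrotic replicate 1, at 3.94 (3.36 to 4.60) in fibrotic replicate 2 and at 3.50 (3.06 to 3.98) in the Hk2-deleted section. These intervals cover counting error only. All 3 CCl4-treated sections lay above the healthy one, and the Hk2-deleted section lay below both fibrotic sections, although its interval overlapped that of fibrotic replicate 2. The sources used here do not say whether the Hk2 probes lie in the deleted exons, and most cells keep the gene, so these levels do not check the deletion. Hk1 and Hk3, other hexokinases, were also lowest in the healthy section and highest in fibrotic replicate 1. Hk1 ranged from 10.0 CPM in the healthy section to 21.6 in fibrotic replicate 1, and Hk3, a myeloid form, from 9.99 to 21.4.

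The positive spots were 99 of 3064 in the healthy section (3.23%), 302 of 4134 in fibrotic replicate 1 (7.31%), 152 of 2577 in fibrotic replicate 2 (5.90%) and 216 of 3865 in the Hk2-deleted section (5.59%). Just inside the threshold, 729 of the 769 members held 1 Hk2 UMI. Another 34 held 2, 4 spots held 3 and 2 spots held 4. Just outside it, a spot with no Hk2 UMI may still contain the transcript, since the chance of counting it rises with depth. The deepest of the 10 bins held 161 positive spots of 1362 and the shallowest 43 of 1366. Positive spots had a median of 19202 UMIs against 15519 in Hk2-zero spots of the healthy section, and 15776 to 18408 against 13547 to 15034 in the CCl4-treated sections. After matching, the medians of the drawn Hk2-zero spots were 18795, 18418, 15761 and 16674 in the healthy section, fibrotic replicate 1, fibrotic replicate 2 and the Hk2-deleted section.

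**Figure D1:**
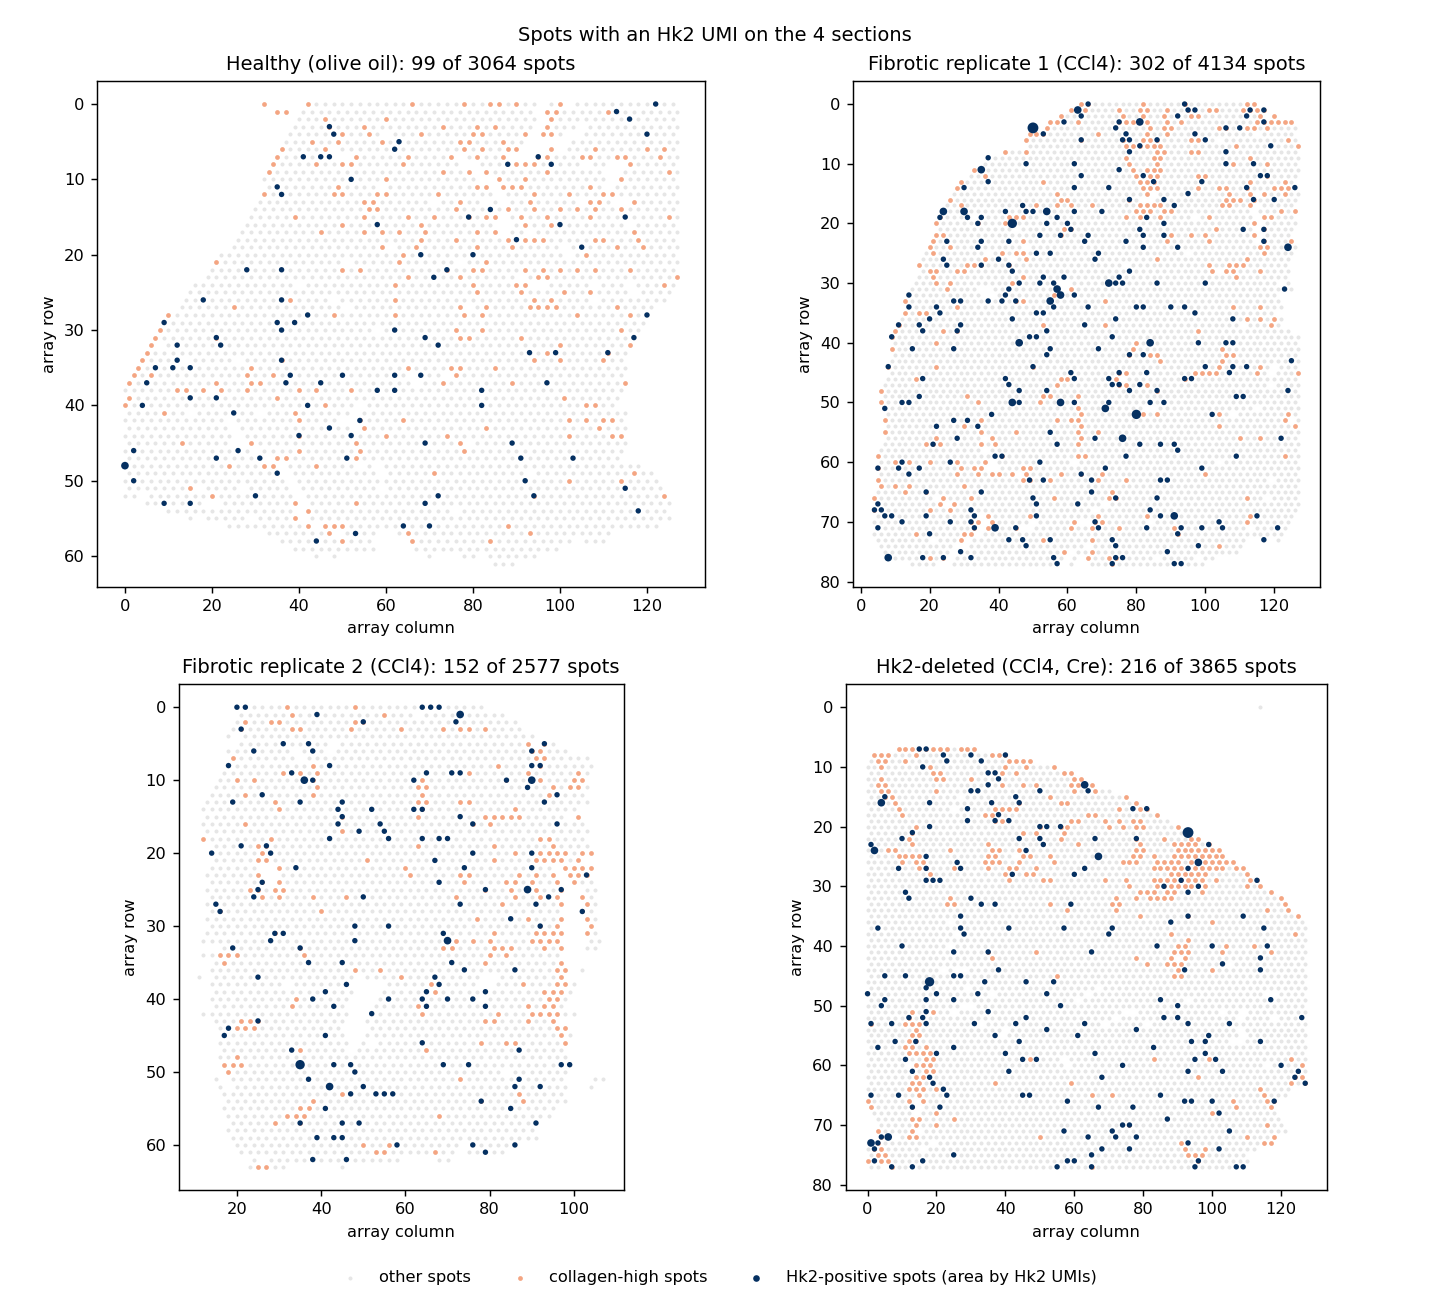
Array column and row of every spot in the 4 sections, with grey for other spots, orange for collagen-high spots (the top 10 percent of each section by the summed share of Col1a1, Col3a1 and Col1a2) and dark blue for Hk2-positive spots, with area by Hk2 UMIs. Positive spots lie across each section, and they number 99, 302, 152 and 216 in the healthy section, fibrotic replicate 1, fibrotic replicate 2 and the Hk2-deleted section.

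Hk2 levels were highest in pericentral tissue of the injured livers. The healthy section had its highest level in the periportal part, with overlapping 95% intervals. The lobule position of a spot was scored from pericentral minus periportal hepatocyte genes, and the spots of each section were cut into 3 equal parts. In the healthy section Hk2 stood at 2.37, 1.48 and 1.47 CPM in the periportal, middle and pericentral parts. It stood at 3.78, 4.86 and 5.69 in fibrotic replicate 1, at 2.99, 3.95 and 5.06 in fibrotic replicate 2 and at 2.27, 3.32 and 5.20 in the Hk2-deleted section. The level thus increased from the periportal to the pericentral part in each of the 3 CCl4-treated sections, although in fibrotic replicate 2 the 95% intervals of the outer parts overlapped (2.16 to 4.02 and 3.88 to 6.48). In the healthy section, with 54, 26 and 20 Hk2 UMIs, they overlapped as well (1.78 to 3.09 and 0.90 to 2.27). After thinning every spot to 5000 UMIs, the share of spots with an Hk2 UMI kept that order, at 1.79%, 2.18% and 2.68% in fibrotic replicate 1, 1.29%, 1.96% and 2.55% in fibrotic replicate 2 and 1.20%, 1.65% and 2.63% in the Hk2-deleted section. In the healthy section it was 1.21%, 0.80% and 0.85%. Fewer cells with the transcript and less transcript per cell cannot be told apart in such spots.

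Collagen-rich tissue held more Hk2 in the CCl4-treated sections. Collagen-high spots had 9.65, 7.65 and 7.06 Hk2 CPM in fibrotic replicate 1, fibrotic replicate 2 and the Hk2-deleted section, against 4.27, 3.59 and 3.12 in the other spots. In the healthy section the values were 2.14 and 1.82, within counting error of each other. The 10 percent of spots richest in hepatocyte genes held 2.94, 3.68, 3.44 and 1.80 CPM in the same order of sections as above, beginning with the healthy one. Despite this, Hk2 had low spatial scores in the authors' deposited table. With 3.23% to 7.31% of spots positive, most of them at 1 UMI, such scores can say little about patchiness. That table gives Moran's I, a score of how alike neighbouring spots are, as -0.0053, -0.00085, 0.0054 and 0.0067 for Hk2, with adjusted p-values of 0.790, 0.983, 0.810 and 0.414.

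**Figure D2:**
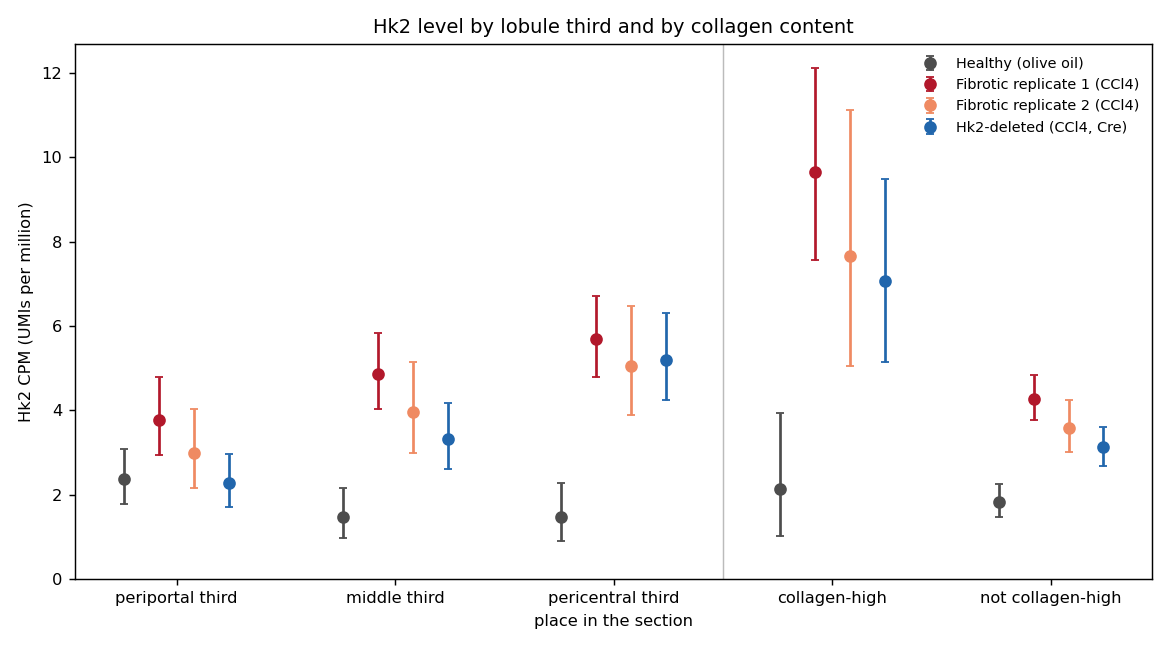
Hk2 CPM (y axis) in the periportal, middle and pericentral parts of the lobule score and in collagen-high and other spots (x axis), one colour per section, with 95% exact Poisson intervals that cover counting error only. In the 3 CCl4-treated sections the level increases from left to right over the lobule parts and is higher in collagen-high spots, 7.06 to 9.65, than in the others, 3.12 to 4.27.

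The question of the main comparison was what else was transcribed where Hk2 was found. Hk2-positive spots held more fibroblast, matrix, neutrophil, plasma cell, macrophage and liver surface transcripts than Hk2-zero spots of the same depth, and slightly less of periportal hepatocyte and globin transcripts. This describes the CCl4-treated sections, and the healthy section followed it only in part. There the summed mesothelial markers were at 17.3 CPM in positive and 34.1 in matched spots, and the B and plasma cell markers at 993 and 1105. Matrix genes outside the fibrillar collagens (1887 and 1909) and periportal genes (9473 and 8965) also went the other way there. Myofibroblast (235 and 208), macrophage (419 and 366) and neutrophil markers (39.3 and 36.5, on 84 and 78 UMIs) were higher in positive spots there too. UMIs were summed over the positive and over the matched spots of each section, and the 8 sums were fitted with section as a block in edgeR's quasi-likelihood test. The threshold for a call was an adjusted p (Benjamini-Hochberg) of 0.05. Of 10809 genes tested, 262 were higher in Hk2-positive spots (2.42%) and 152 were lower (1.41%), 3.83% in either direction. The number depends on which Hk2-zero spots were drawn. Other random draws gave 86 higher and 64 lower genes and 83 higher and 9 lower ones, and weighting all Hk2-zero spots by depth gave 117 and 46. In these 4 comparisons together 54 genes were called higher each time, and 2, Mup10 and Ces3b, were called lower each time. The first draw in fibrotic replicate 1 had few collagen-high spots, 6.29% against 10.4% of all Hk2-zero spots weighted by depth, and its values for Col1a1, Col1a2, Col3a1 and Mmp2 lie at the top of the range over draws. Without fibrotic replicate 1, 111 genes were higher and 15 lower. Of the genes named below as risen or fallen, those no longer called without it are Mfap4, Ccr2, Trem2, C1qa, C1qb, Gpm6a, Sdc1, Pck1, Fbp1, Cyp2f2, Arg1, Serpina1c, Hamp and Orm2.

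Genes of glucose metabolism were called no more often than the 3.83% of all genes. Neither Hk1 nor Hk3 was called. Hk1 stood at 8.91 CPM in positive and 11.2 in matched spots of the healthy section, at 20.5 and 22.9 in fibrotic replicate 1, at 15.1 and 14.9 in fibrotic replicate 2 and at 23.2 and 14.3 in the Hk2-deleted section. Its log2 difference was 0.02 ± 0.13 (SE, 4 sections, edgeR adjusted p = 0.976), and by these levels it was higher in 2 of 4 sections, by most in the Hk2-deleted one. Hk3 differed by 0.17 ± 0.13 (edgeR adjusted p = 0.567). The intervals behind these errors do not exclude small differences.

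Downstream, none of 18 glycolytic genes was called, with a median log2 difference of -0.03, beside -0.01 over all genes tested. Gpi1, which converts glucose 6-phosphate to fructose 6-phosphate, was at 211 and 186 CPM in positive and matched spots of the healthy section and at 306 and 279, 264 and 239, and 262 and 235 in the CCl4-treated ones. It was higher in all 4 sections, but by only 0.08 ± 0.05 on the log2 scale (edgeR adjusted p = 0.441). None of 10 glucose and lactate transport genes passed, nor of 6 in the pentose phosphate pathway, 12 in mitochondrial pyruvate use or 15 of the hypoxia response. Their medians lay between -0.05 and 0.02. Among them the glucose transporter gene Slc2a2 differed by -0.15 (edgeR adjusted p = 0.0882) and the hypoxia-responsive Vegfa by -0.14 (edgeR adjusted p = 0.142). Of 16 genes of gluconeogenesis and glycogen 2 fell, both encoding enzymes that run glycolysis backwards, Pck1 by 0.21 ± 0.05 and Fbp1 by 0.18 ± 0.05 on the log2 scale. Both were called in 2 of the 4 draws and neither was called without fibrotic replicate 1 (edgeR adjusted p = 0.238 and 0.473).

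Fibrillar collagen genes were higher in Hk2-positive spots of the injured livers. Of 6 fibrillar collagen genes tested 4 rose and none fell, with a median log2 difference of 0.43. Col1a1 and Col1a2 encode the chains of type I collagen, the main fibre of scar. Col1a1 stood at 7.97 CPM in positive and 10.3 in matched spots of the healthy section. It stood at 539 and 345 in fibrotic replicate 1, at 194 and 136 in fibrotic replicate 2 and at 460 and 215 in the Hk2-deleted section. It was thus higher in positive spots of all 3 CCl4-treated sections and not of the healthy one. In the Hk2-deleted section 3 positive spots held 40.8% of the Col1a1 UMIs of all positive spots. The 3 highest held 7.01% in fibrotic replicate 1 and 11.6% in fibrotic replicate 2. The log2 difference of Col1a1 was 0.67 ± 0.06 (SE, edgeR adjusted p = 9.02e-17), called in all 4 draws with values from 0.30 to 0.67. It was 0.75 without fibrotic replicate 1. Col1a2 rose by 0.69 ± 0.06. Col3a1, type III collagen, was at 44.6 and 30.5 CPM in the healthy section and at 959 and 669, 432 and 324, and 699 and 419 in the CCl4-treated sections. It was higher in all 4 sections, with a log2 difference of 0.48 ± 0.05 (edgeR adjusted p = 2.16e-12).

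Other matrix genes and the fibroblasts that make them rose alongside. Of 32 other matrix and crosslinking genes 19 rose and 1 fell in the first draw. In all 4 draws 8 of the 19 were called, and the 1 that fell was not. Of 18 myofibroblast and portal fibroblast markers 11 rose, 9 of them in all 4 draws, with a median of 0.42. By section the median log2 ratio of the list was 0.13 in the healthy section, 0.52 in fibrotic replicate 1, -0.18 in fibrotic replicate 2 and 0.55 in the Hk2-deleted section. Mmp2, a gelatinase, was at 5.16 and 3.28 CPM in positive and matched spots of the healthy section and at 115 and 72.7, 57.3 and 43.0, and 65.0 and 39.2 in the CCl4-treated ones, a log2 difference of 0.54 ± 0.08. Mfap4, a microfibril gene, rose by 0.74 ± 0.14 and Col6a2 by 0.49 ± 0.08. Stellate cell markers moved less: 2 of 12 rose, neither of them in all 4 draws, with a median of 0.13. Pdgfrb, the gene whose promoter drives Cre here, was at 9.85 and 9.37 in the healthy section, and at 44.5 and 32.5, 28.5 and 21.0, and 33.0 and 16.8 in the CCl4-treated sections. It rose by 0.47 ± 0.11 (edgeR adjusted p = 0.00254) in the first draw and was called in 1 of 4 draws, with values from 0.28 to 0.47. Acta2, the smooth muscle actin of myofibroblasts, differed by 0.17 (edgeR adjusted p = 0.717).

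**Figure D3:**
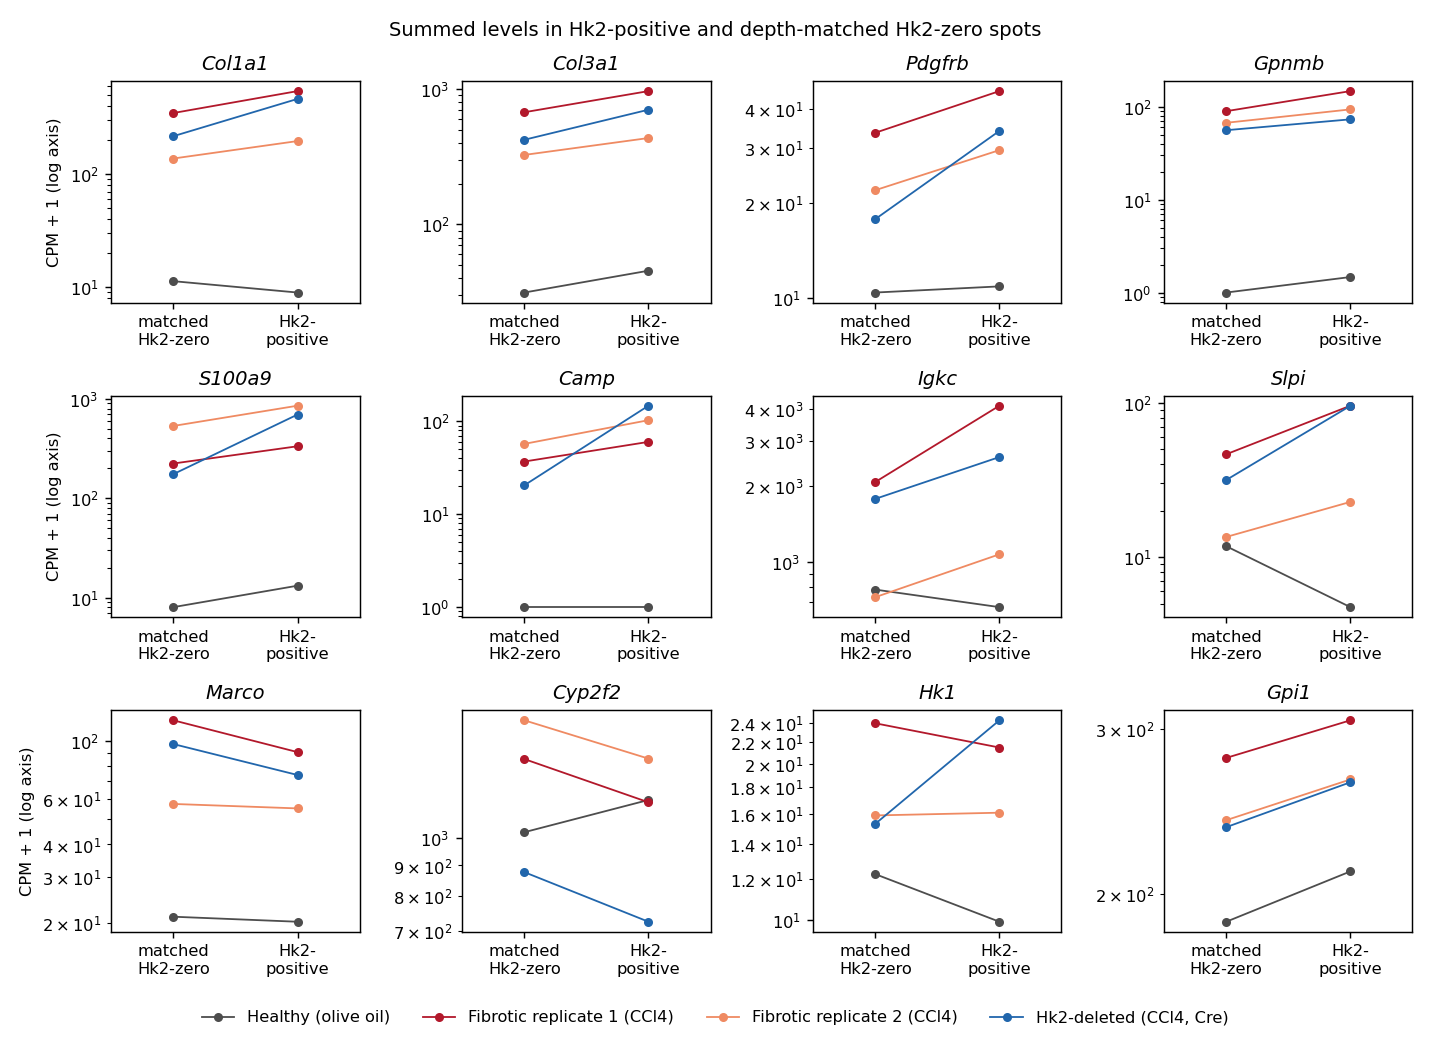
CPM + 1 (log axis) of 12 genes in the summed matched Hk2-zero spots (left point) and Hk2-positive spots (right point), one line per section. The lines of the 3 CCl4-treated sections slope upwards for Col1a1, from 136 to 345 on the left to 194 to 539 on the right, while the healthy line falls from 10.3 to 7.97.

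Neutrophil markers had the largest median difference of the lists. Of 13 neutrophil markers tested 11 rose and none fell, with a median log2 difference of 0.87, and 9 rose when all Hk2-zero spots were used. S100a9, a calcium-binding protein abundant in neutrophils, was at 12.2 and 7.03 CPM in positive and matched spots of the healthy section. It was at 333 and 223 in fibrotic replicate 1, 853 and 533 in fibrotic replicate 2 and 695 and 174 in the Hk2-deleted section, higher in all 4. The log2 difference was 0.97 ± 0.08 (edgeR adjusted p = 4.91e-18), with 0.66 to 0.97 over the draws. The granule genes Camp, Ngp and Ltf, which neutrophils transcribe while they mature, rose by 1.34 ± 0.12, 1.19 ± 0.09 and 1.18 ± 0.11. Camp was not counted in either kind of spot of the healthy section and was at 59.1 and 35.9, 102 and 56.2, and 146 and 19.5 in the CCl4-treated ones. Retnlg and Mmp9, genes of mature neutrophils, rose by 0.83 ± 0.15 and 0.69 ± 0.15.

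Much of this neutrophil difference sat in few spots. In the Hk2-deleted section 3 of the 216 positive spots held 78.8% of the Camp UMIs of all positive spots, 80.2% of Ngp and 62.1% of S100a9. One of them, with 1 Hk2 UMI, held 277 of 617 Camp UMIs, 481 of 1020 Ngp UMIs and 1017 of 2929 S100a9 UMIs. It was also the highest positive spot for 11 of the 23 genes compared, among them the proliferation gene Mki67, with 28 of 133 UMIs, and the histone gene Hist1h3b, with 83 of 417. In fibrotic replicate 1 a single spot with 2 Hk2 UMIs was highest for Camp, Ngp, Ltf, S100a8 and S100a9. When the 3 spots with the most UMIs of a gene were left out on each side of each section, the log2 difference was 0.43 for Camp, 0.42 for Ngp, 0.63 for Ltf and 0.55 for S100a9. All 4 were still called, and 7 of the 13 neutrophil markers rose in that comparison. Of the 262 genes called higher in the first draw, 211 were called in it too.

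**Figure D4:**
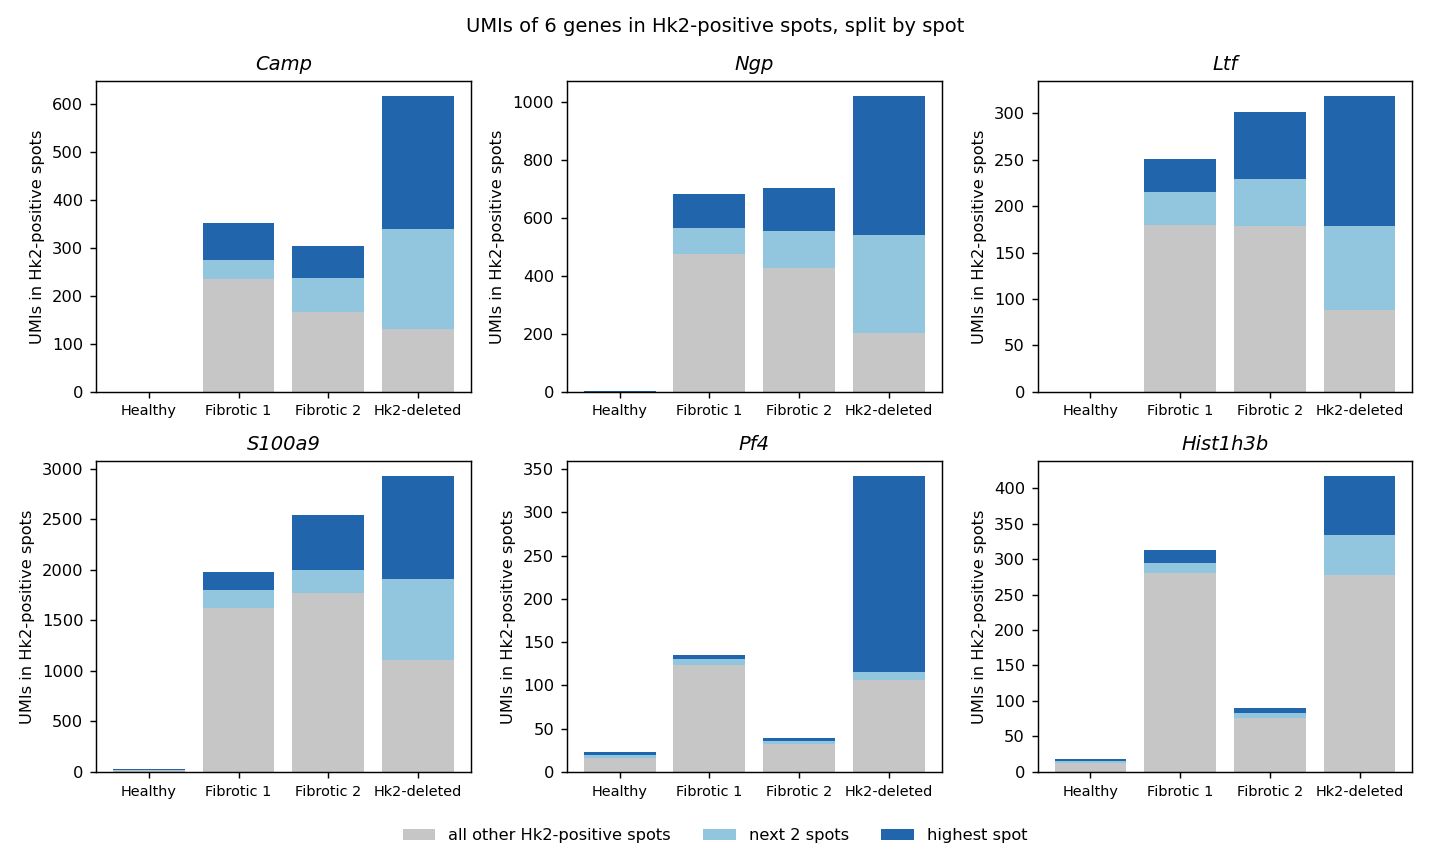
UMIs of 6 genes in the Hk2-positive spots of each section (y axis), each bar split into the highest spot (dark blue), the next 2 spots (light blue) and all other positive spots (grey). For Camp in the Hk2-deleted section the 3 highest spots hold 78.8% of 617 UMIs.

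Plasma cell transcripts were higher as well, again in concentrated spots. Of 12 B and plasma cell markers 4 rose and none fell, with a median of 0.41. Igkc, the kappa light chain, was at 664 and 779 CPM in positive and matched spots of the healthy section. It was at 4123 and 2065 in fibrotic replicate 1, 1073 and 727 in fibrotic replicate 2 and 2589 and 1773 in the Hk2-deleted section, so higher in the 3 CCl4-treated sections and lower in the healthy one. The log2 difference was 0.44 ± 0.06 (edgeR adjusted p = 7.78e-08). A single positive spot of fibrotic replicate 1 held 5354 of its 24553 Igkc UMIs. Jchain, the joining chain of secreted IgA and IgM, was higher in all 4 sections and rose by 0.50 ± 0.05. Ighg2c, an IgG heavy chain, rose by 1.14 ± 0.10, and by 0.37 without the 3 highest spots.

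Macrophage and antigen presentation genes rose by smaller amounts. Of 17 markers of recruited and lipid-associated macrophages 6 rose and none fell, with a median of 0.25, and 1 of the 6 was called in all 4 draws. Gpnmb, a marker of lipid-laden and scar-associated macrophages, was at 0.469 and 0 CPM in the healthy section and at 147 and 88.8, 92.9 and 66.3, and 72.4 and 55.0 in the CCl4-treated sections. It was higher in positive spots of all 4 sections, by 0.50 ± 0.07 on the log2 scale (edgeR adjusted p = 5.58e-08), and was called in every draw. Ccr2, the receptor that brings monocytes into tissue, rose by 0.58 ± 0.11 and was called in 3 of 4 draws. Trem2 rose by 0.42 ± 0.11 and was called in 1. Of 8 MHC class II genes 4 rose, with a median of 0.29, among them H2-Aa by 0.36 ± 0.05 and Cd74, the invariant chain, by 0.35 ± 0.05. Of 11 Kupffer cell markers, those of the resident macrophages, 3 rose and 1 fell, none of them in all 4 draws. The complement genes C1qb and C1qa rose by 0.22 ± 0.05 and 0.17 ± 0.05. The scavenger receptor gene Marco, which marks periportal Kupffer cells, fell by 0.41 ± 0.07 on the log2 scale and was lower in all 4 sections, at 19.2 and 20.1, 89.3 and 119, 54.0 and 56.2, and 72.8 and 96.0 CPM.

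Genes of the liver's surface layer formed another group. Of 7 mesothelial markers 5 rose and none fell, with a median of 0.85, although 2 rose when all Hk2-zero spots were used. Slpi, a protease inhibitor of surface epithelia, was at 3.75 and 10.8 CPM in positive and matched spots of the healthy section. It was at 94.5 and 45.3, 21.8 and 12.5, and 94.4 and 30.6 in the CCl4-treated sections, a log2 difference of 1.06 ± 0.10 (edgeR adjusted p = 5.93e-15). The direction was opposite in the healthy section. A single positive spot held 227 of 563 Slpi UMIs in fibrotic replicate 1, and another held 128 of 398 in the Hk2-deleted section. Neither was highest for Slpi alone. The spot of fibrotic replicate 1 was also the highest positive spot of its section for Igkc and Ighg2c. That of the Hk2-deleted section was also highest for Igkc and for the platelet gene Pf4. In fibrotic replicate 2 the highest spot held 5 of 65 Slpi UMIs. Saa3, an acute phase gene made outside hepatocytes, rose by 0.98 ± 0.09. It was at 297 and 134 CPM in positive and matched spots of the Hk2-deleted section, and at 5.36 to 40.6 in positive spots elsewhere. In the healthy section Saa3 was lower in positive than in matched spots. In the Hk2-deleted section 3 positive spots held 49.3% of the Saa3 UMIs of all positive spots. Gpm6a rose by 0.85 ± 0.19 and Anxa1, annexin A1, by 0.68 ± 0.10. Krt7, a keratin of bile duct cells, rose by 0.87 ± 0.17 and was called in 3 of 4 draws. Of 9 bile duct cell markers tested 3 rose, none of them in all 4 draws, with a median of 0.40. By section the median log2 ratio of that list was 0.90 in the healthy section and 0.30 in fibrotic replicate 1. It was -0.17 in fibrotic replicate 2 and 0.69 in the Hk2-deleted section. Mesothelial cells cover the liver's surface, and spots were called surface spots where they held or touched a UMI of the mesothelial genes Msln or Upk3b. In fibrotic replicate 1 these were 43.0% of positive and 34.1% of matched spots. The shares were 23.2% and 14.1% in the healthy section, 2.63% and 1.97% in fibrotic replicate 2 and 31.9% and 31.5% in the Hk2-deleted section. Without surface spots 9 genes were higher and 3 lower, and Krt7 differed by -0.05.

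Hepatocyte genes were lower by small amounts. Of 12 periportal hepatocyte genes 8 fell and none rose, with a median of -0.20, while of 11 pericentral genes none was called and the median was 0.04. Cyp2f2, a periportal cytochrome P450, was at 1156 and 1022 CPM in positive and matched spots of the healthy section. It was at 1146 and 1353, 1356 and 1571, and 724 and 876 in the CCl4-treated sections, higher in the healthy section and lower in the others. The log2 difference was -0.21 ± 0.05 (edgeR adjusted p = 0.00697), called in 2 of 4 draws and not without fibrotic replicate 1 (edgeR adjusted p = 0.283). Arg1, the urea cycle arginase, fell by 0.21 ± 0.05. Cyp2e1, the pericentral cytochrome that activates CCl4, differed by -0.01 ± 0.05 (edgeR adjusted p = 0.970). Of 12 general hepatocyte markers 3 fell, Serpina1c among them by 0.20 ± 0.05, and Alb differed by -0.10 ± 0.07 (edgeR adjusted p = 0.550). Of 16 acute phase genes 7 fell, such as Hamp by 0.21 and Orm2 by 0.21, and 1 rose, Saa3. With all Hk2-zero spots weighted by depth, 1 periportal, 3 acute phase and no general hepatocyte gene fell. Mup10, a major urinary protein gene of hepatocytes, fell by 0.30 ± 0.06 and was called in every draw.

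Of 7 red cell and platelet markers 2 fell, both globins, and 2 rose, with a median of -0.11. The list's summed level was lower in positive spots of 3 sections and higher in the Hk2-deleted section, at 619 and 586 CPM. Hbb-bs, a beta globin gene, was at 183 and 208 CPM in positive and matched spots of the healthy section and at 511 and 687, 241 and 322, and 237 and 262 in the CCl4-treated ones, lower in all 4. It fell by 0.39 ± 0.05 on the log2 scale (edgeR adjusted p = 9.11e-09), and the alpha globin gene Hba-a2 by 0.40 ± 0.06; each was called in 3 of 4 draws. The platelet gene Pf4, of the same list, rose by 0.56 ± 0.13, but 1 spot with 4 Hk2 UMIs in the Hk2-deleted section held 227 of the 342 Pf4 UMIs of its positive spots. Without the 3 highest spots Pf4 differed by -0.10. That spot also held 105 of 180 UMIs of Ppbp and 24 of 38 of Itga2b, genes of platelets and megakaryocytes.

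None of 12 cell cycle genes was called, with a median of 0.16, nor any of 14 genes of lipid and sterol synthesis, 15 of fatty acid oxidation or 15 of insulin and mTOR signalling, with medians of -0.07, -0.06 and -0.05. Mki67 differed by 0.36 (edgeR adjusted p = 0.149). Of 26 genes of extracellular vesicle release 2 rose, Anxa2 among them by 0.38 ± 0.07, around a median of 0.01. The 1 that fell was Sdc1, a cell surface proteoglycan of hepatocytes.

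The differences were smaller where collagen content was matched too. When the Hk2-zero spots were matched on collagen decile as well as depth, 1 of 10888 genes was called higher and none lower; 565 had an unadjusted p under 0.05, of which 306 were higher. The median log2 difference of the 262 genes was then 0.14 and that of the 152 was -0.06. In the first draw, which chose these genes, the medians were 0.43 and -0.20, and with other Hk2-zero spots matched on depth alone they were already 0.27 to 0.30 and -0.13 to -0.12. By list, the median was 0.36 with all Hk2-zero spots weighted by depth and 0.09 with collagen matching for myofibroblast markers, 0.21 and 0.08 for macrophage markers and 0.69 and 0.11 for mesothelial markers. Matching lowers the collagen genes by construction, and Col1a1 then differed by 0.13. Neutrophil markers had the largest collagen-matched median of these, 0.38, against 0.63 when weighted, with Camp at 0.77 and S100a9 at 0.46, but none was called. Without collagen-high spots 10 genes were higher and 4 lower, and 5 of the 10 were neutrophil markers.

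**Figure D5:**
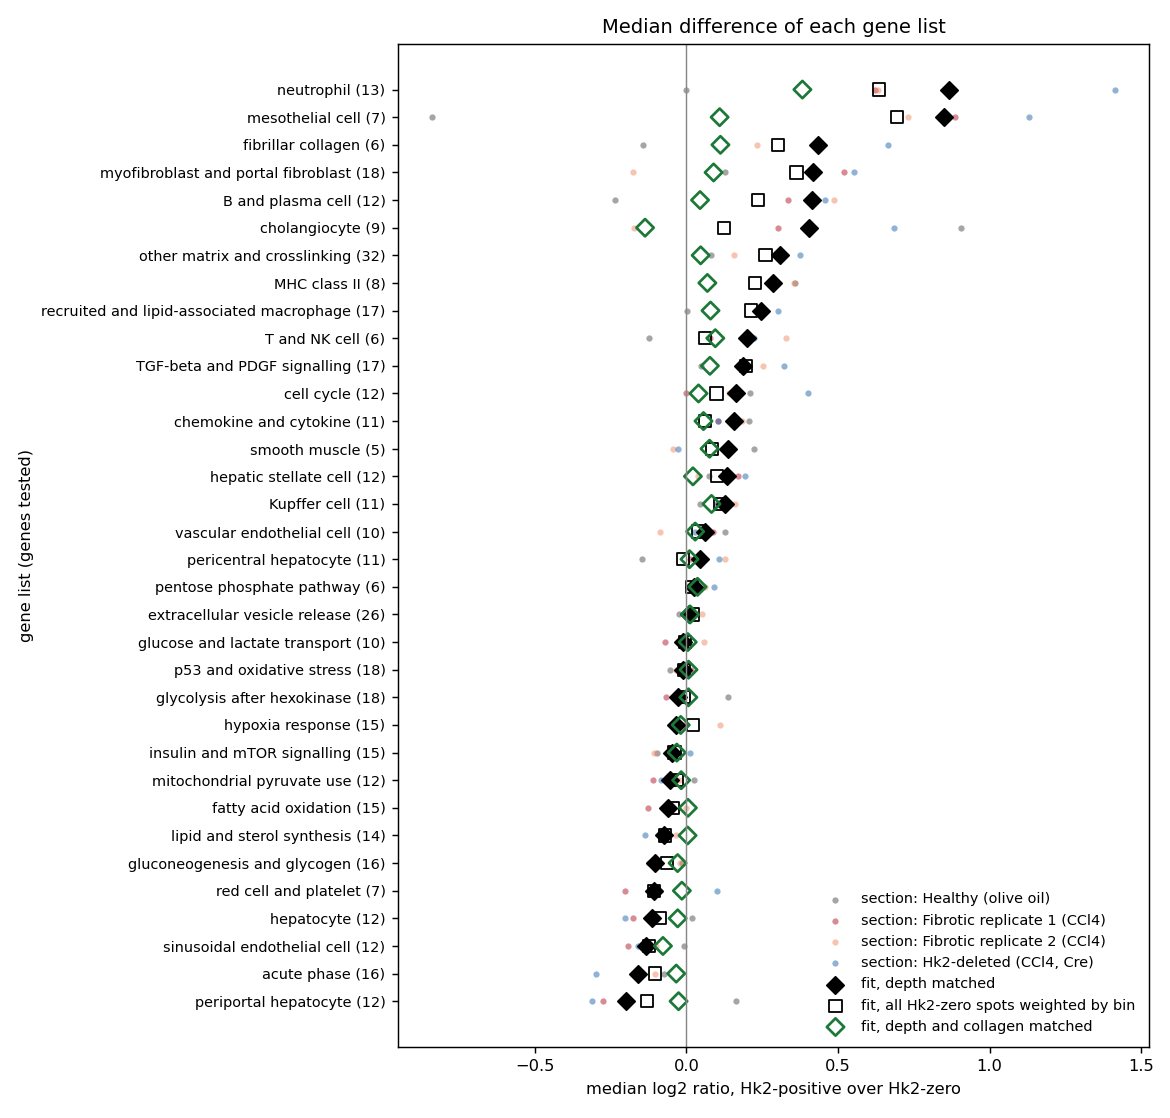
Median log2 ratio of Hk2-positive over Hk2-zero spots (x axis) for each gene list, with the number of genes tested in brackets: black diamonds for the depth-matched fit, open squares for all Hk2-zero spots weighted by depth bin, green diamonds for matching on depth and collagen, and coloured dots for single sections. Neutrophil and mesothelial markers have the largest depth-matched medians named in the text, 0.87 and 0.85, and with collagen matching these are 0.38 and 0.11.

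Each spot was also classed by its own marker content. The markers, the positive spots and the drawn Hk2-zero spots were the same as above, so this is not separate support. For each cell type a class was made of the top 10 percent of each section's spots by the share of its markers, and 22 classes of spots were compared. Macrophage-rich spots were 13.1% of positive and 9.09% of matched spots in the healthy section, 15.6% and 4.64% in fibrotic replicate 1, 12.5% and 8.55% in fibrotic replicate 2 and 17.1% and 6.94% in the Hk2-deleted section. The mean difference was 7.28 ± 3.80 percentage points (SD, n = 4 sections), higher in 4 of 4. Mesothelial-rich spots differed by 7.62 ± 2.02, neutrophil-rich spots by 6.02 ± 3.42 and myofibroblast-rich spots by 7.11 ± 5.28 points, each higher in 4 of 4 sections; with all Hk2-zero spots weighted by depth the myofibroblast class was higher in 3 of 4. Collagen-high spots were 10.1% of both kinds in the healthy section, 20.5% and 6.29% in fibrotic replicate 1, 17.1% and 9.87% in fibrotic replicate 2 and 18.1% and 9.72% in the Hk2-deleted section. With 4 sections the exact two-sided sign-flip permutation test over sections cannot give a p below 0.125, and the smallest value adjusted over the 22 classes was 0.275. Of the classes 8 had the higher share among positive spots in every section. They were the macrophage, mesothelial, neutrophil, myofibroblast, surface, smooth muscle, adipocyte and skeletal muscle classes. Weighted by depth, the surface class too was higher in 3 of 4. With the second draw the macrophage class was equal in fibrotic replicate 2 and the surface class in the Hk2-deleted section. The adipocyte class was then equal in fibrotic replicate 2 and differed by -3.70 points in the Hk2-deleted section. Sinusoidal endothelial and red cell and platelet classes were lower in every section, but each was higher in 1 of 4 when weighted. None of 5 smooth muscle and 3 adipocyte markers tested was called. The B and plasma cell class was higher in 3 of 4 sections. A class can be high without its markers. The mesothelial class was higher among positive spots of the healthy section, where the summed mesothelial markers were lower, and the skeletal muscle class was among the 8, while its 10 markers together stood at only 3.0 to 4.2 CPM in positive spots, with 3 to 8 of them at 0.

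Hk2-positive spots touched another positive spot in a higher share than matched spots in 3 of the 4 sections, by less than the spread between sections. Of positive spots 16.2% touched another positive spot in the healthy section, 41.1% in fibrotic replicate 1, 38.2% in fibrotic replicate 2 and 32.4% in the Hk2-deleted section. The shares among matched Hk2-zero spots were 19.2%, 37.4%, 27.0% and 23.6%. The mean difference was 5.15 ± 6.29 percentage points (SD, n = 4 sections; exact sign-flip p = 0.250).

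Hk2-zero spots that touched a positive spot were therefore compared with depth-matched Hk2-zero spots that touched none. There were 495, 1298, 676 and 990 such neighbours in the healthy section, fibrotic replicate 1, fibrotic replicate 2 and the Hk2-deleted section. Some controls are shared with the main comparison: 17, 119, 55 and 65 of its matched Hk2-zero spots were also controls here, in the same order of sections. Neutrophil genes were higher in the neighbours and globins lower. Of 12434 genes 19 were higher (0.153%) and 10 lower (0.0804%), 0.233% in either direction. Of 14 neutrophil markers 5 rose. Camp was at 0.398 and 0 CPM in neighbours and controls of the healthy section, 56.7 and 48.8 in fibrotic replicate 1, 96.7 and 48.7 in fibrotic replicate 2 and 47.9 and 22.7 in the Hk2-deleted section, higher in all 4. It rose by 0.65 ± 0.07 on the log2 scale (edgeR adjusted p = 5.61e-10), Ngp by 0.45 ± 0.05, Ltf by 0.44 ± 0.06 and S100a9 by 0.31 ± 0.03. Gpnmb rose by 0.22 ± 0.04 and Mmp2 by 0.16 ± 0.04, while Col1a1 differed by 0.10 ± 0.03 (edgeR adjusted p = 0.0771). Hbb-bs fell by 0.28 ± 0.03, Hba-a2 by 0.25 ± 0.03 and Cyp2f2 by 0.10 ± 0.02. DESeq2 called no gene in either direction, with 87 at an unadjusted p under 0.05; without fibrotic replicate 1 edgeR called 28 higher and 1 lower and without fibrotic replicate 2 it called 5 and 2. Cyp2f2, Mmp2 and Hba-a2 were not called without fibrotic replicate 1.

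Whether the Hk2-associated difference itself changed with CCl4 was asked with an interaction term, the mean difference of the 3 CCl4-treated sections minus that of the lone healthy section. In the first draw periportal genes were lower in positive spots of the injured livers and higher in those of the healthy one, with a median log2 ratio of 0.16 in the healthy section and -0.31 to -0.21 in the others. Of 10809 genes the term was higher for 10 (0.0925%) and lower for 10 (0.0925%), 0.185% in either direction. Of 12 periportal genes 4 were lower and none higher, with a median of -0.45 beside -0.03 over all genes, and of 11 pericentral genes 2 were higher and none lower, with a median of 0.28. The term was -0.50 ± 0.09 for Cyp2f2 (edgeR adjusted p = 0.000124), -0.63 for Hal and -0.59 for Sds, enzymes of histidine and serine breakdown, and -0.51 for Hsd17b13, a lipid droplet enzyme. It was 0.37 ± 0.09 for Cyp2e1 (edgeR adjusted p = 0.0346) and 0.46 ± 0.10 for the pericentral gene Oat. Cyp2e1 was at 5836 and 7107 CPM in positive and matched spots of the healthy section and at 4266 and 3983, 3537 and 3058, and 4020 and 3519 in the CCl4-treated ones.

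None of these 20 genes was called in all 4 draws, which share the positive spots and differ in the Hk2-zero spots. Without fibrotic replicate 1, Cyp2f2, Sds, Hsd17b13 and Cyp2e1 were not called, and Hal and Oat were. Over the draws the value for Cyp2f2 ran from -0.50 to 0.06. Spp1, osteopontin of bile duct cells and macrophages, was called in 3 draws, with values from -1.11 to -0.70. It was at 133 and 56.2 CPM in positive and matched spots of the healthy section and at 279 and 249, 231 and 266, and 289 and 183 in the CCl4-treated ones. For immunoglobulin genes the value moved with the draw. Igkv12-89 was at 3.75 and 203 CPM in the healthy section, against at most 3.59 in any sum of the other sections, and its term ran from 1.31 to 5.57 over the draws. The term of Igkc was 0.86 ± 0.10 in the first draw and -0.40 in the second, past the threshold both times.

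The difference between the Hk2-deleted section and the fibrotic ones was tested the same way in the 3 CCl4-treated sections. Hk2-positive spots of the Hk2-deleted section were richer in neutrophil transcripts, relative to their matched spots, than those of the fibrotic sections. Of 11148 genes the term was higher for 24 (0.215%) and lower for 3 (0.0269%), 0.242% in either direction, and 14 of the 24 were called in all 4 draws. Of 13 neutrophil markers 5 were higher. The term was 2.06 ± 0.19 for Camp (edgeR adjusted p = 4.77e-24), 1.51 ± 0.23 for Ltf, 1.39 ± 0.13 for Ngp and 1.30 ± 0.10 for S100a9. It was 1.27 for both histone genes Hist1h3b and Hist1h3c, called in every draw, and 1.10 ± 0.28 for Mki67, a gene of dividing cells, called in 2 of 4. Of 15 cell cycle genes 1 was called. Col1a1 had 0.43 ± 0.10 (edgeR adjusted p = 0.00437) and Col1a2 0.42 ± 0.10, with values from -0.14 to 0.61 and from 0.11 to 0.66 over the draws. Each was called in 3 of 4 draws and neither with collagen matching, at 0.25 and 0.13. Igha, the IgA heavy chain, had -0.49 ± 0.08 in the first draw, the only one that called it, with -0.49 to -0.05 over the draws.

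These values too rested on few spots. Without the 3 highest spots of each gene, 3 genes were higher and 1 lower. Camp then had 0.61 (edgeR adjusted p = 0.999), Ngp -0.18, S100a9 0.32 and Pf4, which had 1.40 before, 0.04. Spp1 had 0.61 and Igha -0.50, and both were still called (edgeR adjusted p = 2.29e-05 and 2.56e-06), but in the first draw alone of the 4, with 0.13 to 0.58 for Spp1 over the draws. Hist1h3b, Hist1h3c and Mki67 had 0.69, 0.79 and 0.68 without the 3 highest spots, against 1.27, 1.27 and 1.10 with them, and lost their call. For Ighg2c 1 positive spot of the Hk2-deleted section held 135 of 239 UMIs, and for Iglc3 1 such spot held 80 of 148. A fit that leaves out either fibrotic section has no residual degree of freedom, so this comparison gives no test without fibrotic replicate 1.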

How the data were processed

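The deposited matrices hold raw UMI counts for each gene in each spot, which Space Ranger 2.0.0 wrote per the file headers. The submitters' processing notes name mm10 as the genome. The authors also deposited, per section, a table with a spatial score (Moran's I) and its adjusted p-value per gene. The matrices held 19465 genes. Hk2 (ENSMUSG00000000628, chromosome 6, 82725025 to 82774454 on GRCm38.p6) defined the spots and was left out of all sums. Images were not analysed here.

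Within each section spots were cut into 10 depth bins, and as many Hk2-zero as Hk2-positive spots were drawn per bin with a fixed seed. Spots are not replicates, so counts were summed per section and kind: 8 sums. The quasi-likelihood test of edgeR 4.0.16 (R 4.3.3) was run after filterByExpr and TMM scaling, with section as a block; SE is the size of the log2 difference over the square root of F. The block fit leaves 3 residual degrees of freedom, the CCl4 term 2 and the deletion term 1, so a lone section is assumed to vary like the others. Nothing in the labels gives further replicates, so the tests rest on these 4 sections. In edgeR each gene's variance is moderated with that of the other genes. A gene's SE and p-value therefore need not reflect its own spread between sections, as for Slpi, whose direction was opposite in the healthy section. CPM are raw shares of each sum, without Hk2. Tests were checked on sums simulated with the variances fitted to the first draw. At a log2 difference of 1 the block fit found 94.9% of changed genes with 7 false calls among 10713 genes. At 0.5 it found 62.2%. In the same order the CCl4 term found 36.5% and 4.04% and the deletion term 51.5% and 13%. The simulation held no clumping of UMIs in single spots and no redrawing of Hk2-zero spots, so false calls from these are not counted.

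Members and the 37 lists were chosen with earlier results of these data known. Named genes were the 12 largest called changes per direction with a CPM of at least 10 and the same sign in every section (for the 2 interaction terms, the lone section outside the others' range), up to 4 called or 2 uncalled members per list, and a few fixed genes. Ces3b, Ppbp, Itga2b and S100a8 were named after their values were seen. Alternatives were DESeq2 1.42.0, other scaling, filters, draws, bins, matching on collagen or lobule part, leaving out classes of spots and leaving out each section. Leaving out the highest spots and some draws and matchings for the interaction terms were added after seeing the data. Some genes are not reported here.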

Additional observations from a re-analysis of the deposited data

Results flagged for a closer look

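The results here are genes for which a test of the difference itself, an interaction term in edgeR's quasi-likelihood test, put the Hk2-positive difference of one group apart from that of another. All values are log2 differences between groups in that difference, each group holding 1 to 3 sections.

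For CCl4-treated against healthy sections, periportal genes had negative values: Cyp2f2 -0.50, Hal -0.63, Sds -0.59 and Hsd17b13 -0.51, as did Mt1, a metallothionein gene, at -0.43 and Mup3, a major urinary protein gene, at -0.38. Spp1 had -1.11. The pericentral genes Cyp2e1 and Oat had 0.37 and 0.46. Slpi and Saa3 had 2.66 and 2.24, and the immunoglobulin genes Ighj4, Igkv12-89 and Igkc had 2.54, 5.57 and 0.86. Slpi rested on 8 and 23 UMIs in positive and matched spots of the healthy section and Saa3 on 16 and 36.

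For the Hk2-deleted section against the fibrotic sections, the neutrophil genes Camp, Ltf, Ngp and S100a9 had 2.06, 1.51, 1.39 and 1.30. The platelet gene Pf4 had 1.40, and the immunoglobulin genes Iglc3, Ighg2c, Igha and Igkc had 1.95, 1.68, -0.49 and -0.33. The histone genes Hist1h3b, Hist1h3c and Hist1h2bj had 1.27, 1.27 and 1.23, and Mki67 had 1.10. Col1a1, Col1a2 and Spp1 had 0.43, 0.42 and 0.58. Both contrasts have 1 section on one side, and no cause of these differences was tested.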

How the results depend on the processing

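Counts of genes called higher and lower in Hk2-positive spots moved with most choices. From 262 and 152 they went to 10 and 88 with DESeq2, 86 and 64 and then 83 and 9 with other draws, 117 and 46 with all Hk2-zero spots weighted, 62 and 6 with 20 bins, 1 and 0 with collagen matching, 38 and 8 with lobule matching, 10 and 4 without collagen-high spots, 9 and 3 without surface spots, and 0 and 0 without the section block (96 at an unadjusted p under 0.05); without the 3 highest spots 230 were lower. Leaving out 1 section gave 85 to 349 higher and 15 to 318 lower. For the CCl4 term, from 10 and 10, they were 3 and 3 with DESeq2, 0 and 2 and then 4 and 1 with other draws, 1 and 0 weighted, 2 and 4 and then 0 and 5 without the highest or 3 highest spots, 1 and 0 with collagen and 0 and 0 with lobule matching (530 at an unadjusted p under 0.05), and 6 to 18 and 3 to 69 without 1 section. For the deletion term, from 24 and 3, they were 4 and 0 with DESeq2; 14 were higher without the highest spot and with collagen matching, and 3 higher and 1 lower without the 3 highest. Lower genes there numbered 1 and 5 with other draws, 0 weighted and 1 with lobule matching. For neighbours, from 19 and 10, they were 0 and 0 with DESeq2 and 34 and 21 without the filter on low counts, with 6 lower under collagen matching and 5 to 64 and 1 to 80 without 1 section. Classes with the higher share in every section numbered 8, and 16 without the healthy section. No paired analysis was possible because the groups share fewer than 2 replicate numbers; the section block pairs the sums.

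Of the log2 values of named genes, 908 kept direction and side of the threshold under an alternative, 484 lost the call, 7 gained it and 27 turned. For Hk2-positive spots, collagen matching gave Elane -0.22, Pdgfrb -0.034, Spp1 -0.18 and Hamp 0.0018. Lobule matching gave Reln -0.056. Leaving out collagen-high spots gave Elane -0.13 and Pf4 -0.55, and leaving out surface spots Krt7 -0.046, Spp1 -0.30 and Pf4 -0.22. Spp1 was -0.032 with the second draw and -0.064 with 20 bins, and Pf4 -0.10 without the highest or 3 highest spots and -0.11 to 0.96 without 1 section, lowest without the Hk2-deleted one. For the CCl4 term, lobule matching gave Cyp2e1 -0.036, Slpi -1.12, Oat -0.0035 and Sds 0.019. The second draw gave Cyp2f2 0.064, Ighj4 -0.33 and Igkc -0.40, and collagen matching Saa3 -0.11 and Ighj4 -0.074. For the deletion term, Col1a1 was -0.14 with the second draw, Ngp -0.18 without the 3 highest spots and Igkc 0.082 with collagen matching. The causes were not tested. Depth limits the rest: 729 of 769 members rest on 1 Hk2 UMI.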
